A study of Rattus norvegicus with 12 samples.

Results

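The nuclear genes of the mitochondrial respiratory chain were followed in rat dorsal root ganglia 3 days after spinal nerve ligation (SNL). A gene counted as a member when its symbol began with Nduf, Uqcr or Atp5, or with Cox and a digit from 4 to 8 and a letter, or was Sdha to Sdhd, Cyc1 or Cycs. Of 10411 genes with a usable probe set, 85 were members. They comprised 34 subunits of complex I, 4 of complex II, 8 of complex III, 18 of complex IV, 16 of complex V and 5 complex I assembly factors with Ndufaf symbols. Ndufa4 and Ndufa4l2 were placed with complex IV, as was Cox7a2l, a supercomplex factor, and the pseudogene Cox6c-ps1 met the symbol rule too. RefSeq lists 120 protein-coding symbols that meet the rule, and 36 of them, Cycs included, had no probe set annotated to that gene alone.

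The study hybridised total RNA from these ganglia, taken at L4/L5, to 12 Affymetrix arrays. The animals were adult males of the Sprague Dawley strain weighing 180 to 300 g. They came from 2 genetic sub-lines, High Pain (HP) and Low Pain (LP), and had either ligation of the L4 and L5 spinal nerves, 3 days earlier, or sham surgery that left the nerves undamaged. Each line had a sham and an SNL group, which makes 4 groups of 3 arrays. No naive animals were among the samples, and all groups share the strain, the sex and a surgery. The labels do not say whether the 3 arrays of a group came from separate animals or pools, so the p-values reflect the spread among these 12 samples alone, and that spread may be technical.

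Oxidative phosphorylation passes electrons from NADH through complex I, or from succinate through complex II, to ubiquinone, then through complex III and cytochrome c to complex IV, which reduces oxygen. Complexes I, III and IV pump protons, and complex V, the ATP synthase, uses the gradient to make ATP. Sensory neurons have long axons and a high demand for ATP, and complexes I, III, IV and V each combine subunits of the mitochondrial genome, which the symbol rule does not cover, with the nuclear subunits described here.

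Values below are signals, the deposited intensities on a linear scale. A difference is the mean log2(signal + 1) of the SNL arrays minus that of the sham arrays, given with its standard error (SE), and a member was called when the adjusted p of limma, by Benjamini-Hochberg over all 10411 genes, was under 0.05. The members were mostly bright. On mean signal 69 of 85 lay in the brightest 25% of genes and 4 in the dimmest, and their median SD between replicates was 0.136 log2 units against 0.207 over all genes. Array medians ran from 278.4 to 313.2, and the number of arrays limits the precision.

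Respiratory chain genes were mostly lower after ligation, by small amounts. Averaged over the lines, 24 of the 85 members were called lower, or 28.2%, against 11.8% of all genes, and 2 were called higher, against 13.0% of all genes. Among the brightest 25% of genes, 21.2% were called lower and 19.2% higher. The median difference of the members was -0.17, against 0.01 over all genes and -0.03 over the brightest 25%. Of the 85, 78 lay below 0, or 91.8%, against 48.4% of all genes and 53.9% of the brightest 25%. Of the 24 lower calls, 15 were also made in each of 24 other analyses, and the other 9 are named beside their complexes.

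**Figure D1:**
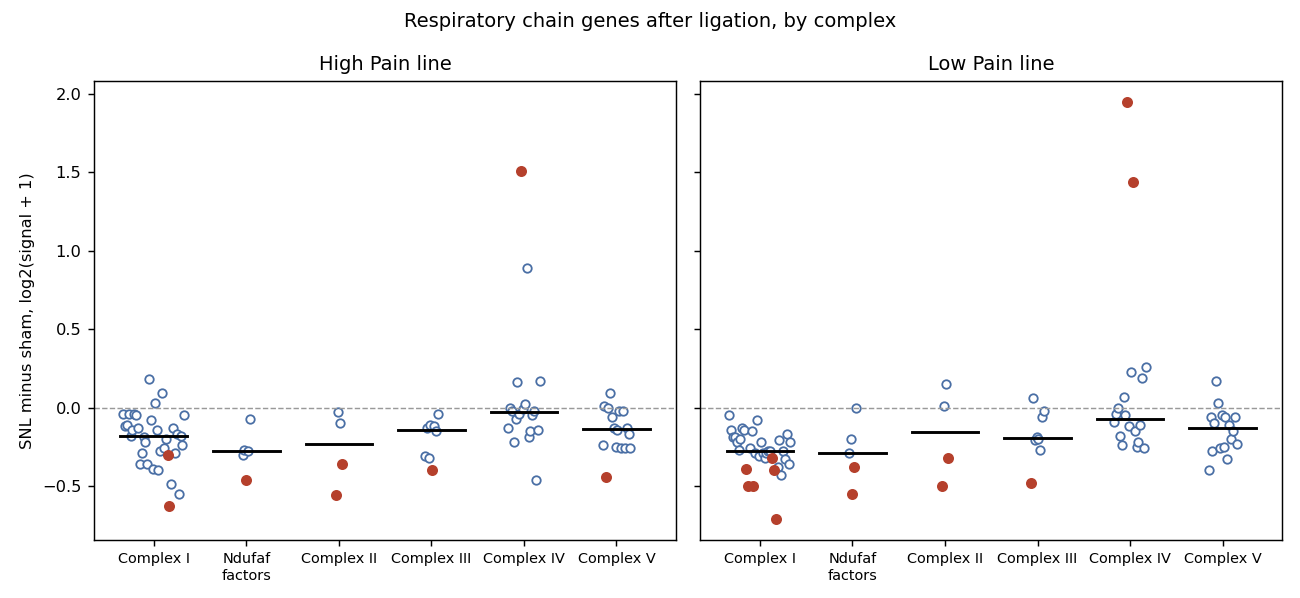
Log2 difference of SNL from sham (vertical axis) for each of the 85 members, by complex (horizontal axis), in HP (left) and LP (right), with called members as filled points and the median of each complex as a line. Of the 34 complex I subunits, 31 lie below 0 in HP and 34 in LP, while complex IV holds the points far above 0, Cox6b2 and Cox7a1.

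The members' counts differed from complex to complex. Complex I had 15 of 34 subunits called lower and a median difference of -0.21, with all 34 below 0. Complex II had 2 of 4 called lower (median -0.18), complex III 2 of 8 (median -0.17), complex V 3 of 16 (median -0.14) and the Ndufaf factors 2 of 5 (median -0.29). Complex IV had 0 of 18 called lower and 2 called higher, with a median of -0.07. Whether the complexes differed from each other was not tested.

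Several cell type markers moved with the ligation too, with calls and medians averaged over the lines unless a line is named. Of 11 sensory neuron markers measured, 8 were called lower, with a median difference of -0.97. Their summed signal was 38680 to 40610 in HP sham, 29450 to 31920 in HP SNL, 37060 to 40560 in LP sham and 24410 to 27730 in LP SNL. Of 7 macrophage markers, 6 were called higher, and their sum was 3027 to 3254 in HP sham, 6823 to 7842 in HP SNL, 2895 to 3108 in LP sham and 6264 to 7155 in LP SNL. The 4 proliferation markers were all called higher (median 2.94), with sums of 171.0 to 270.7 in HP sham, 676.8 to 792.4 in HP SNL, 116.3 to 168.1 in LP sham and 818 to 867.3 in LP SNL. Of 4 satellite glia markers 2 were called higher and 1 lower, with sums of 3640.0 to 3835 in HP sham, 6069 to 6451 in HP SNL, 4166 to 4567 in LP sham and 5934 to 6172 in LP SNL. Of 3 adipocyte markers 2 were called higher, with sums of 291.2 to 337.8, 414.1 to 471.8, 265.9 to 314.3 and 380.0 to 491.5 in the same order. None of 4 Schwann cell and 2 red blood cell markers was called on average. In HP alone 1 of the 2 red blood cell markers was called higher. Their sums were 8851 to 10320 in HP sham, 13500 to 15310 in HP SNL, 8823 to 12670 in LP sham and 9526 to 13270 in LP SNL. No marker of these lists was at 0 on any array, and the lowest signal of any neuronal marker, on any array, was 93.3. In bulk ganglia, fewer cells of a type and less RNA per cell cannot be told apart. The part of these cell types in the members' differences was not tested.

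Complex I takes electrons from NADH, and its core subunits carry the flavin and the iron-sulfur clusters. The 6 core subunits measured had a median difference of -0.36, and 4 of them were called lower. Ndufs1, the large iron-sulfur subunit, had the smallest p of all members. Ndufs1 signals were 1266, 1205 and 1227 in HP sham, 902, 746 and 748 in HP SNL, 1352, 1340.0 and 1461 in LP sham and 809.5, 956 and 781 in LP SNL. Every SNL array lay below every sham array, in both lines. The difference was -0.67 ± 0.08, a signal that fell by 37.2% (limma adjusted p 0.000174). In each line on its own it was -0.63 ± 0.11 in HP (adjusted p 0.00456) and -0.71 ± 0.11 in LP (adjusted p 0.00209). The HP call was lost, and the LP call kept, when HP sham replicates 1 and 3 were both left out.

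The other core subunits called lower were Ndufs8 (-0.44 ± 0.12), Ndufs3 (-0.43 ± 0.10) and Ndufv2 (-0.30 ± 0.08). Ndufs8 and Ndufs3 belong to the module that passes electrons to ubiquinone, and Ndufv2 carries an iron-sulfur cluster near the flavin. In HP, Ndufs8 read 1189, 1269.5 and 1202 after sham and 710.4, 961 and 845 after SNL, and in LP it read 857, 1032 and 856 after sham and 593, 704 and 919 after SNL. The HP groups did not overlap, and in LP the third SNL array was higher than 2 of the sham arrays. The Ndufs8 call (adjusted p 0.0213) was lost without LP sham replicate 2, at an adjusted p of 0.052, with a covariate for the actin ratio (0.072) and when both HP sham replicates 1 and 3 were left out (0.0934). That covariate also ended the Ndufs3 call (adjusted p 0.0898), as did leaving out HP sham replicates 1 and 3 together (0.108). Ndufv1, the flavin subunit, stood at -0.17 ± 0.07 (adjusted p 0.102) and Ndufs7 at -0.22 ± 0.08 (adjusted p 0.0659), and neither was called.

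**Figure D2:**
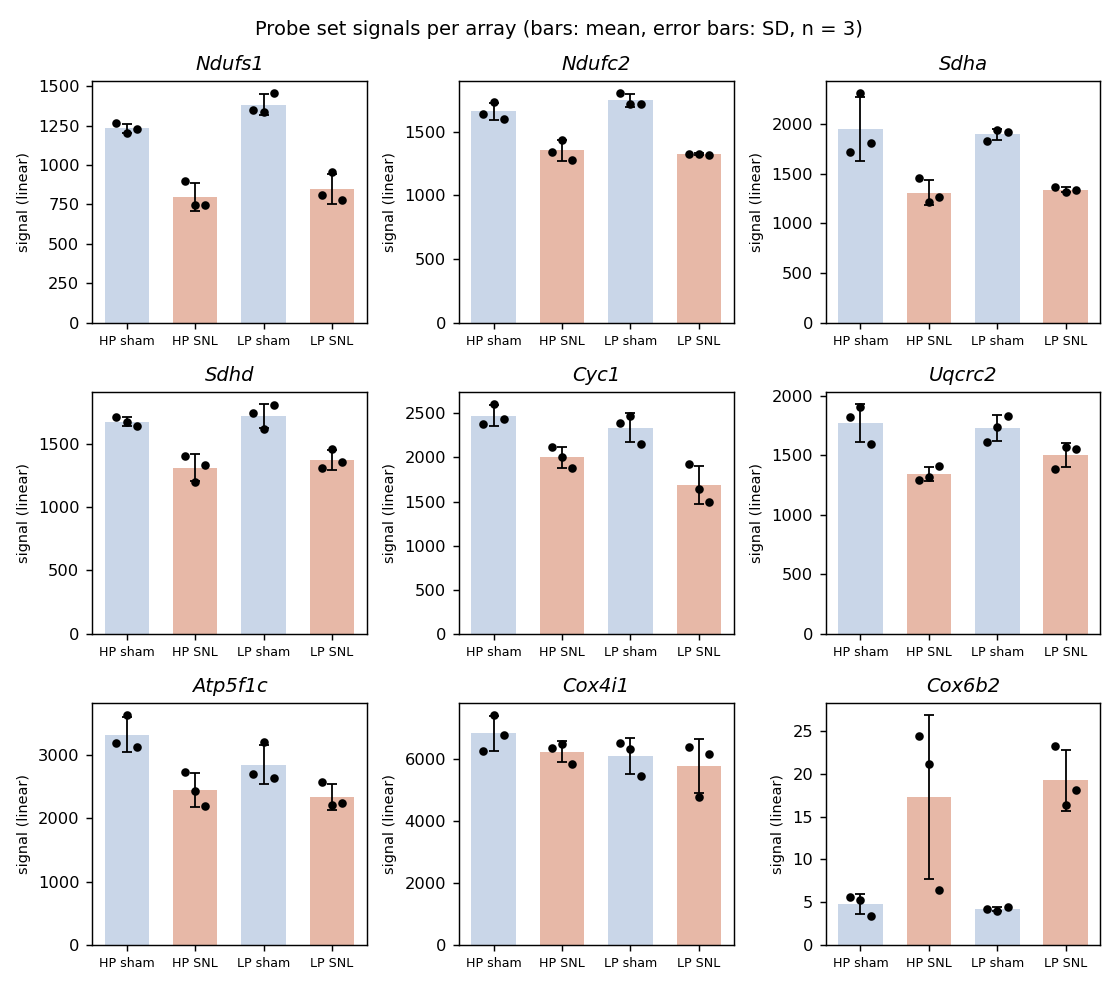
Signal (vertical axis, linear intensity) on each of the 12 arrays for 9 members, by group (horizontal axis), with points for arrays, bars for the group means and error bars for the SD (n = 3). Ndufs1 fell on all SNL arrays of both lines, while Cox6b2 rose from signals of 3.4 to 5.6 to signals of 6.4 to 24.4.

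Accessory subunits surround the core and are needed for its assembly and stability. Of 28 measured, 11 were called lower, with a median of -0.19. The Ndufc2 probe set gave 1642, 1735 and 1598 on the HP sham arrays and 1343, 1437 and 1276 on the HP SNL arrays, with 1808, 1714 and 1714 and 1324, 1327 and 1314 in LP. The 4 groups were tight, and no SNL array of this membrane-arm subunit reached a sham array of either line, for a difference of -0.35 ± 0.06 (adjusted p 0.00135). For Ndufb10 the sham arrays read 1462, 1678 and 1648 in HP and 1509, 1839 and 1732 in LP, and the SNL arrays 1384, 1193 and 1148 in HP and 1082, 1284 and 1212 in LP. All SNL arrays of Ndufb10, another membrane-arm subunit, were again below all sham arrays (difference -0.43 ± 0.08, adjusted p 0.00354). Ndufa9, an accessory subunit near the ubiquinone site, differed by -0.40 ± 0.08 (adjusted p 0.00361). In HP, Ndufa9 read 1315, 1458 and 1329.6 after sham and 1241, 1068 and 1057 after SNL, and in LP it read 1339.5, 1389.8 and 1352 after sham and 1081, 858 and 954 after SNL. The first HP SNL array stood closest to the sham arrays, though still below them.

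The remaining accessory calls were Ndufa8 (-0.37 ± 0.08), Ndufs6 (-0.36 ± 0.09), Ndufb6 (-0.36 ± 0.10), Ndufb3 (-0.35 ± 0.09), Ndufb7 (-0.29 ± 0.08), Ndufb9 (-0.27 ± 0.06), Ndufc1 (-0.26 ± 0.06) and Ndufa2 (-0.20 ± 0.06), of which the Ndufb and Ndufc subunits sit in the membrane arm. The Ndufs6 call was lost with the actin ratio as a covariate (adjusted p 0.0971) and without HP sham replicates 1 and 3 together (0.082). The Ndufa2 call (adjusted p 0.0425) was lost without any 1 of 10 arrays, at adjusted p from 0.0534 to 0.0971, and among single arrays held without HP sham replicate 2 or HP SNL replicate 1. Quantile normalization (adjusted p 0.0608), the actin ratio (0.0897) and the loss of both HP sham replicates 1 and 3 (0.228) ended it as well. The Ndufb7 call (adjusted p 0.0316) was lost without 9 of the arrays in turn, at adjusted p from 0.0533 to 0.0739, and held without LP sham replicate 3, LP SNL replicate 3 or HP SNL replicate 1. A covariate for the actin ratio (adjusted p 0.199) ended it too, as did leaving out both HP sham replicates 1 and 3 (0.097). The Ndufb6 call (adjusted p 0.0247) was lost, at adjusted p from 0.0501 to 0.0595, without HP sham replicate 2 or 3, HP SNL replicate 2, LP sham replicate 2 or 3, or LP SNL replicate 1. The subunits nearest to 0 were Ndufa1 at -0.04 ± 0.07, Ndufb11 at -0.05 ± 0.15 and Ndufb2 at -0.08 ± 0.10, none of them called.

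The 2 probe sets of Ndufv3, an accessory subunit with alternative transcripts, did not read alike. The brighter, with a mean signal of 1133, stood for the gene and gave -0.14 (adjusted p 0.564 in a fit of every probe set). The dimmer, at a mean of 132.2, gave -0.72 (adjusted p 0.000178), with -0.70 in HP and -0.75 in LP, a size close to that of Ndufs1. Which transcripts each probe set reads was not tested.

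Of the assembly factors, which build complex I without staying in it, Ndufaf5 and Ndufaf7 were called lower. Ndufaf5 signals were 360.5, 418 and 416 in HP sham, 323, 286 and 262 in HP SNL, 489, 411 and 397 in LP sham and 293, 260.5 and 331 in LP SNL. For Ndufaf5, which acts early in assembly, no SNL array reached a sham array, and the difference was -0.50 ± 0.09 (adjusted p 0.00273). Ndufaf7, a methyltransferase that modifies a core subunit, differed by -0.33 ± 0.07 (adjusted p 0.00462). The Ndufaf7 probe set gave 445, 378 and 409.7 on the HP sham arrays and 332, 344 and 338 on the HP SNL arrays, with 446, 459.7 and 478 and 357, 384 and 327 in LP. Groups did not overlap within a line. Without HP sham replicates 1 and 3 together it stood at -0.27 (adjusted p 0.0629).

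Complex II, succinate dehydrogenase, is the link between the TCA cycle and the chain, and its 4 subunits split into pairs. Sdha, the flavin subunit that oxidises succinate, was called lower at -0.53 ± 0.09 (adjusted p 0.00125). In HP, Sdha read 1720.3, 2316 and 1804 after sham and 1451, 1214 and 1264 after SNL, and in LP it read 1827, 1939.6 and 1917 after sham and 1369, 1312 and 1337 after SNL. The second HP sham array was the highest of all 12, and every SNL array lay below every sham array. Sdhd, a membrane anchor, was called lower at -0.34 ± 0.06 (adjusted p 0.0033). For Sdhd the sham arrays read 1713, 1676 and 1647 in HP and 1749, 1622 and 1806 in LP, and the SNL arrays 1408, 1199.5 and 1331 in HP and 1308, 1463 and 1361 in LP. Again the 6 SNL arrays lay below the 6 sham arrays, and the second probe set of Sdhd was also called lower, at -0.21 (adjusted p 0.0322).

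Sdhb, the iron-sulfur subunit, was not called. Sdhb signals were 1828, 1694 and 1798 in HP sham, 1934, 1626 and 1668 in HP SNL, 1596, 1818 and 1748 in LP sham and 1594, 1920.2 and 1685 in LP SNL. Its groups overlapped throughout, with a difference of -0.01 ± 0.08 (adjusted p 0.946). The Sdhc probe set gave 1848, 1781 and 1671 on the HP sham arrays and 1695, 1597 and 1635 on the HP SNL arrays, with 1727, 1759 and 1563 and 2049, 1789.7 and 1777 in LP. For Sdhc, the other membrane anchor, all LP SNL arrays were above the LP sham arrays, while in HP the groups overlapped with SNL mostly lower. Its difference was 0.02 ± 0.07 on average (adjusted p 0.839), -0.10 ± 0.09 in HP and 0.15 ± 0.09 in LP. The contrast between the lines for Sdhc, 0.26 ± 0.13, had the smallest unadjusted p of the members' interactions (0.0773) and did not pass the adjustment (adjusted p 0.988).

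**Figure D3:**
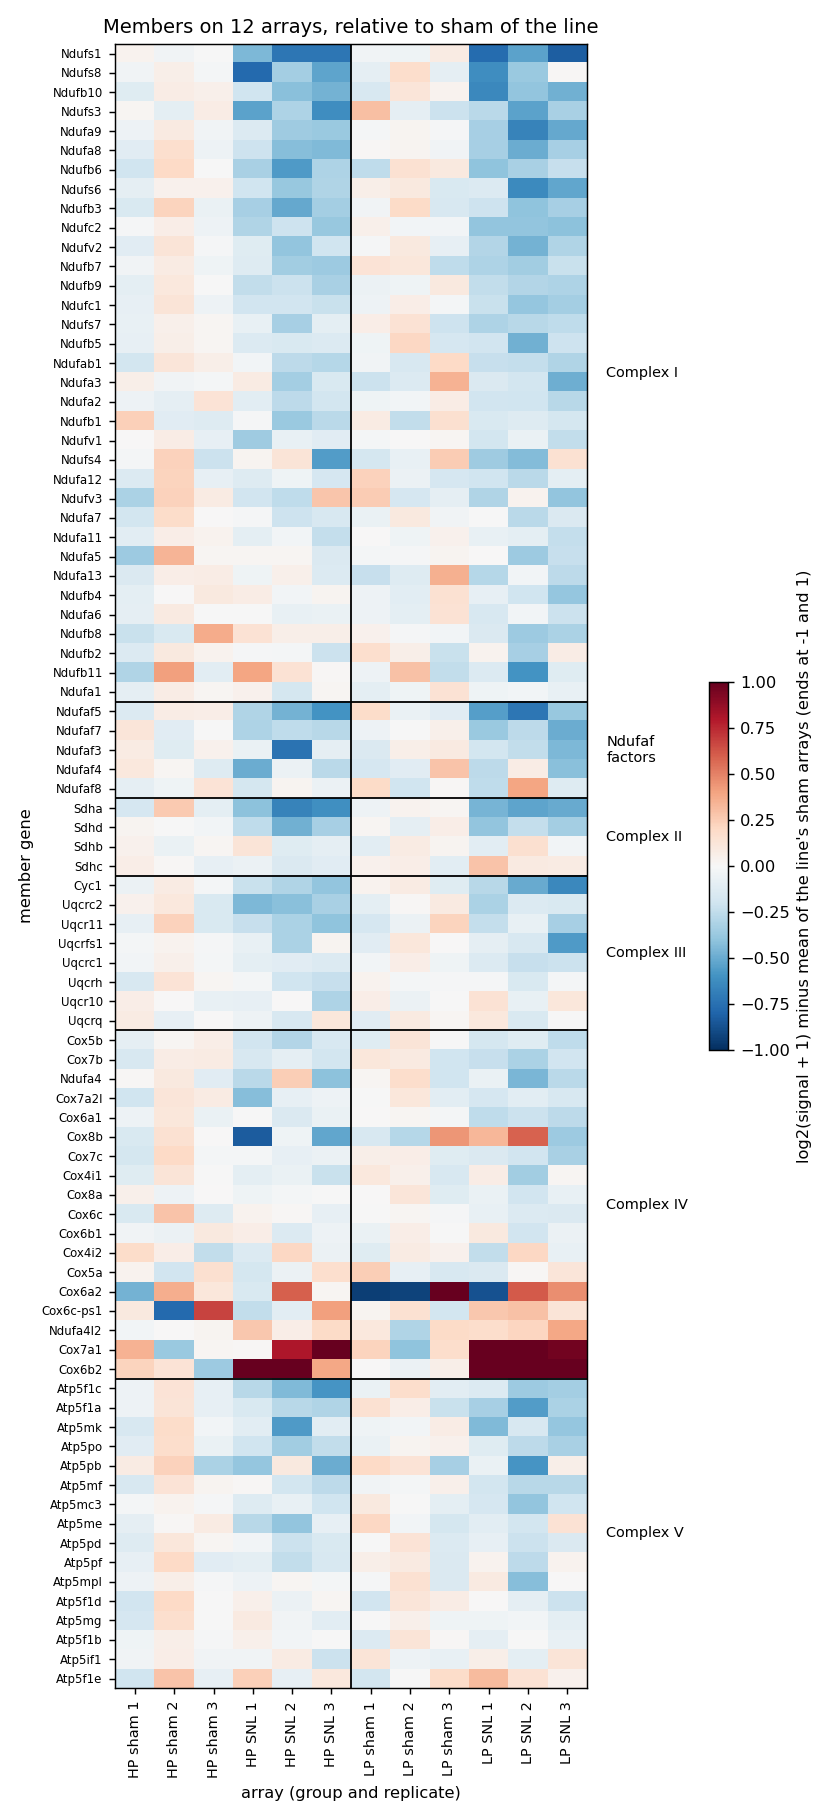
Log2(signal + 1) on each of the 12 arrays minus the sham mean of its line (colour, ends at -1 and 1), with members in rows by complex and arrays in columns by group. The SNL columns are mostly on the lower side for complexes I to III, complex V and the assembly factors, with Cox6b2 and Cox7a1 on the higher side.

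Complex III hands electrons from ubiquinol to cytochrome c. Cyc1, the cytochrome c1 that makes the last transfer within the complex, was called lower at -0.39 ± 0.08 (adjusted p 0.00454). Cyc1 signals were 2379.8, 2611 and 2433 in HP sham, 2123, 2005 and 1877 in HP SNL, 2392, 2471 and 2150.0 in LP sham and 1922, 1645 and 1489.7 in LP SNL. All 6 SNL arrays lay below all 6 sham arrays. Uqcrc2, a core protein, was called lower at -0.30 ± 0.07 (adjusted p 0.0113). In HP, Uqcrc2 read 1817, 1903 and 1589.8 after sham and 1293, 1320.1 and 1409.8 after SNL, and in LP it read 1612, 1733 and 1830.1 after sham and 1380.3, 1566 and 1554 after SNL. The groups did not overlap, though the HP and LP differences were unequal at -0.40 ± 0.10 and -0.20 ± 0.10 (interaction adjusted p 0.988).

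Its partner Uqcrc1 was not called, at -0.15 ± 0.05 (adjusted p 0.0613). The Uqcrc1 probe set gave 3174, 3344 and 3180.4 on the HP sham arrays and 3024, 2988 and 2946 on the HP SNL arrays, with 2901, 3103 and 2876 and 2689, 2526 and 2546 in LP. SNL arrays were below sham arrays within each line. Uqcr11, a small subunit, stood at -0.26 ± 0.10 (adjusted p 0.0732). For Uqcr11 the sham arrays read 1787, 2219 and 1703 in HP and 1604, 1729 and 2094 in LP, and the SNL arrays 1611, 1515 and 1429 in HP and 1526, 1712 and 1430.5 in LP. Its LP groups overlapped. The other 4 members lay between -0.20 ± 0.10 for Uqcrfs1, the Rieske iron-sulfur protein, and -0.03 ± 0.08 for Uqcrq, and none was called.

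Complex IV had no member called lower, although 13 of its 18 members lay below 0. Of the 18, the 16 other than Cox6b2 and Cox7a1 had differences from -0.20 to 0.22, and none passed the test, the lowest adjusted p being 0.0526 for Cox5b. Cox5b signals were 4001, 4317 and 4468 in HP sham, 3735, 3466 and 3801 in HP SNL, 3455, 4105 and 3759 in LP sham and 3338, 3462 and 3158 in LP SNL. In HP the SNL arrays of Cox5b lay below the sham arrays, and in LP 1 SNL array exceeded 1 sham array, for a difference of -0.20 ± 0.07. In HP, Cox6a1 read 4014, 4484 and 3964 after sham and 4135, 3753 and 3962 after SNL, and in LP it read 3873, 3919 and 3807 after sham and 3236, 3334 and 3223 after SNL. For Cox6a1, the widely expressed VIa isoform, LP SNL arrays lay below LP sham arrays and the HP groups overlapped (difference -0.16 ± 0.06, adjusted p 0.0753). The Cox4i1 probe set gave 6266, 7418 and 6764 on the HP sham arrays and 6353, 6482 and 5840.5 on the HP SNL arrays, with 6518, 6299 and 5437 and 6381, 4762 and 6142 in LP. Cox4i1, the common isoform of subunit IV, overlapped between surgeries in both lines at -0.11 ± 0.09 (adjusted p 0.457).

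The other widely expressed subunits were not called either. For Cox6b1 the sham arrays read 2764, 2716 and 3030.4 in HP and 2399, 2619 and 2502 in LP, and the SNL arrays 2968, 2574 and 2736 in HP and 2674, 2189.7 and 2405 in LP. Cox6b1 differed by -0.05 ± 0.07 (adjusted p 0.699), with overlapping groups. Cox8a signals were 5293, 4923 and 5130.3 in HP sham, 4963, 5049 and 5113 in HP SNL, 4548, 4928 and 4169.8 in LP sham and 4324, 3966 and 4299.5 in LP SNL. For Cox8a the difference was -0.07 ± 0.06 (adjusted p 0.491), and LP values lay mostly below HP values after either surgery. In HP, Cox7a2l read 2516, 3135 and 3055 after sham and 2152, 2728 and 2789 after SNL, and in LP it read 3004, 3253 and 2801 after sham and 2679, 2798 and 2696 after SNL. Cox7a2l stood at -0.17 ± 0.09 (adjusted p 0.22), with no overlap in LP. The Ndufa4 probe set gave 3416, 3638 and 3139 on the HP sham arrays and 2806, 4022 and 2558 on the HP SNL arrays, with 2709, 3020.2 and 2328 and 2552, 1947 and 2215 in LP. Ndufa4 was at -0.20 ± 0.13 (adjusted p 0.286), and its second HP SNL array was the highest of all 12.

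Cox6b2, known as the testis isoform of subunit VIb, had the largest difference of any member at a pseudocount of 1. Cox6b2 signals were 5.6, 5.2 and 3.4 in HP sham, 24.4, 21.2 and 6.4 in HP SNL, 4.2, 4.0 and 4.4 in LP sham and 23.3, 16.4 and 18.1 in LP SNL. Every SNL array was above every sham array, although the third HP SNL array was only just so. The difference was 1.73 ± 0.28, or 3.32-fold on the signal + 1 scale (adjusted p 0.00124). These are very low signals, between the 0.4 and the 8.0 percentile of probe sets on their arrays, and the size depends on the pseudocount: with 16 in place of 1 the difference was 0.72 (adjusted p 0.00245) and with 32 it was 0.45 (adjusted p 0.00419). Cox7a1 then stood above it, at 0.89 and 0.72. Whether these signals lay above background on the arrays was not tested.

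Cox7a1, the isoform of subunit VIIa typical of heart and skeletal muscle, was the other member called higher, at 1.16 ± 0.30 (adjusted p 0.0161). For Cox7a1 the sham arrays read 33.3, 19.8 and 26.3 in HP and 37.6, 24.0 and 36.3 in LP, and the SNL arrays 26.1, 46.0 and 96.4 in HP and 112, 96.4 and 63.6 in LP. The LP groups did not overlap, while in HP the first SNL array lay within the sham range. The call was lost without HP sham replicates 1 and 3 together (adjusted p 0.051) and with the 3' to 5' actin ratio of each array as a covariate (adjusted p 0.063). Its probe set lay between the 5.7 and the 23.1 percentile of its arrays.

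Skeletal muscle markers and other muscle isoforms are given here beside Cox7a1, whose cell source was not tested. Of the 3 adipocyte markers given above, 2 were called higher. The summed signal of 11 skeletal muscle markers was 4160 to 5104 in HP sham and 3170 to 3488 in HP SNL, and 3427 to 3969 in LP sham and 3430 to 3724 in LP SNL. Of these 11 markers 4 were called lower in HP and 0 were called in LP. In HP, Cox6a2 read 13.7, 25.2 and 21.0 after sham and 17.3, 29.9 and 19.7 after SNL, and in LP it read 11.2, 11.3 and 84.7 after sham and 11.8, 34.9 and 31.3 after SNL. This muscle isoform of subunit VIa ranged widely within groups, with 1 LP sham array far above the rest, and differed by 0.11 ± 0.49 (adjusted p 0.904). Cox8b signals were 11.5, 14.4 and 12.9 in HP sham, 6.8, 12.5 and 8.7 in HP SNL, 8.8, 8.0 and 13.9 in LP sham and 12.8, 15.5 and 7.5 in LP SNL. Cox8b, another muscle isoform, was at -0.14 ± 0.20 (adjusted p 0.684), with overlap in both lines.

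The remaining alternative isoforms lay between the 42.8 and the 53.3 percentile of their arrays (Cox4i2) and between the 28.8 and the 40.1 percentile (Ndufa4l2), and were not called. Cox4i2, the isoform of subunit IV linked to low oxygen, differed by -0.02 ± 0.11 (adjusted p 0.935). The Cox4i2 probe set gave 322, 297 and 238 on the HP sham arrays and 258, 326 and 271 on the HP SNL arrays, with 274, 316 and 308 and 252, 345 and 284 in LP. Its groups overlapped. Ndufa4l2, a hypoxia-responsive relative of Ndufa4, stood at 0.22 ± 0.09 (adjusted p 0.119). For Ndufa4l2 the sham arrays read 157, 161 and 163 in HP and 187, 141 and 198 in LP, and the SNL arrays 193, 168 and 183 in HP and 196, 202 and 227 in LP. In HP all SNL arrays were above the sham arrays, and in LP the groups overlapped.

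Complex V had 3 members called lower. Atp5f1c, the gamma subunit that turns within the catalytic head, was at -0.36 ± 0.09 (adjusted p 0.012). Atp5f1c signals were 3195, 3639 and 3132 in HP sham, 2734, 2439 and 2197 in HP SNL, 2708, 3210.2 and 2635 in LP sham and 2578, 2206 and 2240.3 in LP SNL. Groups did not overlap within a line. Atp5f1a, the alpha subunit of the head, was at -0.32 ± 0.09 (adjusted p 0.0203). In HP, Atp5f1a read 3530.0, 4007 and 3456 after sham and 3293, 3009.9 and 2969 after SNL, and in LP it read 4235, 3984 and 3260.2 after sham and 3013, 2582 and 3061 after SNL. Its call was lost without HP sham replicates 1 and 3 together (adjusted p 0.0524) and with the actin ratio as a covariate (adjusted p 0.144). Atp5po, part of the stalk that holds the head still, was at -0.25 ± 0.07 (adjusted p 0.0304). The Atp5po probe set gave 2534, 3086 and 2616 on the HP sham arrays and 2387, 2145 and 2309 on the HP SNL arrays, with 2376, 2538 and 2563 and 2296, 2081 and 1994 in LP. That call was lost, at adjusted p from 0.0531 to 0.0723, without HP sham replicate 2, HP SNL replicate 2 or 3, LP sham replicate 2 or 3, or LP SNL replicate 2 or 3.

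Atp5f1b, the catalytic beta subunit, was not called, at -0.02 ± 0.06 (adjusted p 0.826). For Atp5f1b the sham arrays read 7466, 7998 and 7615 in HP and 6708, 8059 and 7437 in LP, and the SNL arrays 7955, 7547 and 7685 in HP and 6917, 7364 and 7029 in LP. Its groups overlapped in both lines, in contrast to the gamma subunit of the same head. Atp5mc3 signals were 5196, 5416 and 5233 in HP sham, 4829, 5029.7 and 4599 in HP SNL, 5097, 4744 and 4434 in LP sham and 4227, 3607 and 4133 in LP SNL. Atp5mc3, a gene for the membrane c-ring, had no overlap within a line, at -0.19 ± 0.07 (adjusted p 0.0564). In HP, Atp5if1 read 1445, 1557 and 1451 after sham and 1447, 1574 and 1277 after SNL, and in LP it read 1619.7, 1430.0 and 1413 after sham and 1549, 1389 and 1623 after SNL. Atp5if1, the inhibitor that blocks the enzyme when it runs backwards, overlapped throughout at -0.01 ± 0.08 (adjusted p 0.935). The other 10 members of complex V were not called and ran from -0.29 ± 0.10 for Atp5mk to 0.13 ± 0.11 for Atp5f1e.

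Array by array, complex I was lower on every SNL array than on any sham array of its line. The mean over its 34 subunits, set against the sham mean of the line, was -0.10, 0.09 and 0.00 on the HP sham arrays and -0.13, -0.22 and -0.24 on the HP SNL arrays. On the LP arrays that mean stood at -0.01, 0.01 and 0.00 for sham and at -0.25, -0.32 and -0.27 for SNL. The first arrays of HP sham and HP SNL thus stood near each other, while the LP arrays were well apart. Over all genes the same mean lay between -0.02 and 0.02 in HP and between -0.07 and 0.08 in LP. Complexes II and III and the Ndufaf factors were separated in the same way, but complexes IV and V were not. For complex V the mean was -0.09 on the first HP sham array and -0.08 on the first HP SNL array. For complex IV, Cox6b2 and Cox7a1 included, it was -0.01, 0.15 and 0.07 on the HP SNL arrays and 0.14, 0.16 and 0.10 on the LP SNL arrays.

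In HP alone 7 of 85 members were called lower, or 8.24%, against 6.61% of all genes and 10.9% of the brightest 25%. Another 1 was called higher, against 7.02% of all genes. In LP 11 were called lower, or 12.9%, against 6.79% of all genes and 12.9% of the brightest 25%. There 2 were called higher, against 7.66% of all genes. Within each line the share called lower was therefore not above that of bright genes. The count of lower calls in HP was 2 without HP sham replicate 1 or 2 or HP SNL replicate 3, and 3 without HP sham replicate 3 or HP SNL replicate 2. In LP it was 6 without LP sham replicate 1 or LP SNL replicate 1, 4 without LP sham replicate 2, 7 without LP SNL replicate 2 and 5 without LP SNL replicate 3. The higher call of Cox6b2 in HP was lost without any HP array other than SNL replicate 3, and that of Cox7a1 in LP without any array other than HP SNL replicate 1 or 3. Of the 85 members, 67 were below 0 in both lines, or 78.8%, against 34.4% of all genes. Ndufs1, Ndufc2, Sdha, Sdhd and Ndufaf5 were called lower in each line and Cox6b2 was called higher in each. These 6 are 7.06% of the members, against 9.6% of all genes called in both lines, so the share is below the background. None of the HP calls was made in every alternative analysis, and of the LP calls only those of Ndufs1 and Cox6b2 were.

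**Figure D4:**
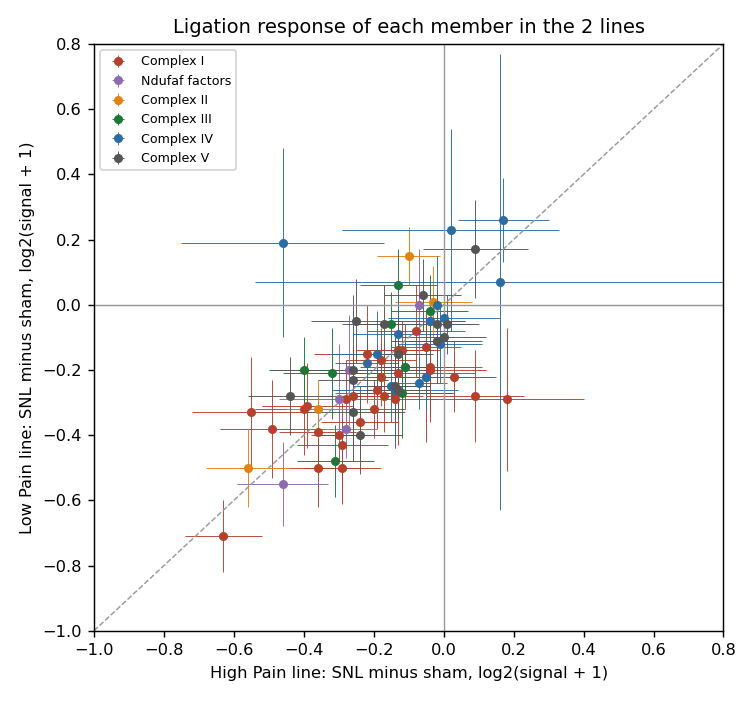
Log2 difference of SNL from sham in HP (horizontal axis) against that in LP (vertical axis), 1 point per member, coloured by complex. Most points lie below 0 on both axes (67 of 85), and Cox6b2 (1.51 and 1.95) and Cox7a1 (0.89 and 1.44) fall outside the axes.

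Without overlap of any kind, all 3 SNL arrays were below all 3 sham arrays for 30 members in HP, or 35.3%, against 17.1% of all genes, and for 35 in LP, or 41.2%, against 14.7%. All 3 were above for 2 members in HP and 3 in LP, or 2.35% and 3.53%, against 17.2% and 16.5%. Across both lines, all 6 SNL arrays were below all 6 sham arrays for 14 members, or 16.5%, against 7.03% of all genes. These 14 were 9 subunits of complex I, Sdha, Sdhd, Cyc1, Uqcrc2 and Ndufaf5. Cox6b2 was alone in the opposite direction, at 1.18% of members against 7.66% of all genes. The members varied less between replicates than all genes did, and these shares were not taken for bright genes alone.

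In HP, other measures moved with the surgery as well, among them the red blood cell and skeletal muscle marker sums given above. The 3' to 5' ratio of the actin control probe sets, a measure of RNA integrity and labelling, was 1.483 to 1.847 in HP sham, 1.118 to 1.342 in HP SNL, 0.9931 to 1.877 in LP sham and 1.113 to 1.125 in LP SNL. With that ratio as a covariate, 20 members were called lower and 1 higher on average. HP sham replicates 1 and 3, 2 arrays with high skeletal muscle actin in earlier results of these data, were also left out together. That leaves replicate 2 as the only HP sham array. Set against the sham mean of the line, its mean was 0.09 for complex I and 0.14 for complex V, the highest of the HP sham arrays. Calls lost in that setting, here and elsewhere in the text, rest on this array for HP sham.

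The sub-lines were compared within each surgery, to ask whether they differ in these genes. By limma, 0 members were called between LP and HP after sham, after SNL or in the interaction, against 0.00961%, 0.173% and 0.0% of all genes. At an unadjusted p under 0.05, 11 of 85 members differed after sham, 20 after SNL and 0 in the interaction. Over all 10411 genes these counts were 1016, 1110 and 490, or 9.76%, 10.7% and 4.71%. Of the members, 10 of the 11 and 19 of the 20 were lower in LP. Among all genes 526 of the 1016 and 523 of the 1110 were lower. Among the brightest 25% these were 162 of 263 and 232 of 320. These contrasts share arrays with the ligation contrasts. Cell type markers differed between the lines too. At the same unadjusted limma p, 7 of 11 skeletal muscle markers were lower in LP after sham (median -0.70) and 0 differed after SNL. Of 11 sensory neuron markers, 0 differed after sham and 5 were lower in LP after SNL (median -0.28), with 1 called. The part of cell types in the members' line differences was not tested.

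Uqcr10, a small subunit of complex III, had the smallest p after sham. Uqcr10 signals were 3807, 3647 and 3457 in HP sham, 3437, 3646 and 2938 in HP SNL, 2677, 2453 and 2546 in LP sham and 2830.3, 2422 and 2773 in LP SNL. Every LP array lay below every HP array. LP minus HP was -0.51 ± 0.11 after sham (adjusted p 0.193) and -0.32 ± 0.11 after SNL (adjusted p 0.327). Ndufb2 showed the same order, at -0.48 ± 0.14 after sham (adjusted p 0.373) and -0.47 ± 0.14 after SNL. In HP, Ndufb2 read 2369, 2785 and 2658 after sham and 2573, 2563 and 2241 after SNL, and in LP it read 2092, 1938 and 1594 after sham and 1912, 1476 and 1957 after SNL. Its lowest HP array was above its highest LP array.

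Ndufa11, an accessory subunit of the membrane arm, was at -0.30 ± 0.09 after sham (adjusted p 0.382) and -0.31 ± 0.09 after SNL (adjusted p 0.277). The Ndufa11 probe set gave 1338, 1502 and 1476 on the HP sham arrays and 1339.6, 1406 and 1216 on the HP SNL arrays, with 1169, 1128 and 1199 and 1108, 1090.1 and 989 in LP. LP arrays were lower than HP arrays in both surgeries. Ndufs7, a core iron-sulfur subunit, had -0.47 ± 0.11 after SNL (adjusted p 0.177). For Ndufs7 the sham arrays read 1779.6, 1943 and 1900.5 in HP and 1525, 1608 and 1258 in LP, and the SNL arrays 1778, 1489.8 and 1748 in HP and 1176, 1201 and 1222 in LP. After SNL no LP array reached an HP array. Cox6a1, whose signals are given above, was at -0.27 ± 0.08 after SNL (adjusted p 0.281).

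Besides Sdhc, the smallest interaction p-values were those of Ndufb8 and Ndufb4, 2 accessory subunits of complex I. Ndufb8 signals were 528, 553 and 798 in HP sham, 681, 641 and 642 in HP SNL, 673, 648 and 643 in LP sham and 591, 508 and 525 in LP SNL. In LP the SNL arrays lay below the sham arrays and in HP they fell within the sham range. The interaction of Ndufb8 was -0.36 ± 0.20 and that of Ndufb4 was -0.25 ± 0.15, both with an adjusted p of 0.988. In HP, Ndufb4 read 2673, 2857 and 3047 after sham and 3009.6, 2807 and 2905 after SNL, and in LP it read 2738, 2630.5 and 3144 after sham and 2670.4, 2458 and 2166 after SNL. Only the LP SNL arrays of Ndufb4 stood low, with overlap at their highest array.

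Promoters were compared because most members of this pathway lay below 0 after ligation, although most were not called. RefSeq promoter sequences of the rat assembly GRCr8, 250 bases before to 50 after the start, matched 76 of the 85 members. Both strands were searched for CCGGAAG, a form of the motif of ETS factors such as the one also known as NRF2, and for CGCATGC, a core of the motif of NRF1, which controls many respiratory genes. The ETS letters were present in 21 of the 76 members, or 27.6%, against 8.75% of 33469 promoters and 15.5% of 8631 promoters of genes tested here, 1 per gene. They were present in 7 of the 21 matched members called lower, or 33.3%, and in 14 of the 55 others, or 25.5%. These counts are small, and whether the shares differ was not tested.

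The NRF1 letters were searched in 2 forms. The first had G before and GC after this core and matched 5 of the 76 members, or 6.58%, against 0.852% of all promoters and 1.71% of those of genes tested. It was replaced by the core alone after these counts were seen, and the core matched 11 members, or 14.5%, against 3.33% and 5.58%. The order of called and other members turned with the form. The longer form was in 2 of 21 members called lower and 3 of 55 others, or 9.52% and 5.45%, and the core was in 2 of 21 and 9 of 55, or 9.52% and 16.4%. No order between these members is therefore read from the NRF1 letters. A match describes the letters in this window and is not a binding site.

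The following 3 promoters are shown as examples of each motif and of neither: Ndufs1, the member with the smallest p, with the ETS motif in capitals on the opposite strand, Ndufaf5, called lower, with the NRF1 core in capitals where its matches on both strands overlap, and Cox6b2, called higher, with neither. They lie at chr9:72073556-72073855 on the minus strand, chr3:147961362-147961661 on the plus strand and chr1:78122621-78122920 on the plus strand, and each is written 5′ to 3′ on the strand of its gene.
Ndufs1: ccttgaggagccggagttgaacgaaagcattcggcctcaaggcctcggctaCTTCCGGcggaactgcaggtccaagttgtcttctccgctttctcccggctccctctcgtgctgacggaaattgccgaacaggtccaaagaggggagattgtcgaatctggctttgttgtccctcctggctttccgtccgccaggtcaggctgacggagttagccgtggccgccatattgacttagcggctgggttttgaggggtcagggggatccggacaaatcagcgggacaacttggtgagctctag
Ndufaf5: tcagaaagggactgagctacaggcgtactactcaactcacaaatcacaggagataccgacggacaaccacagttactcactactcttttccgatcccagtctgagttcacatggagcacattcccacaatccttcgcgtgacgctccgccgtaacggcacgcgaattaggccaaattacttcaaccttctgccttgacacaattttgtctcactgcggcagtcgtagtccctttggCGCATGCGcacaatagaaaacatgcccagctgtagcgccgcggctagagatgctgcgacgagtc
Cox6b2: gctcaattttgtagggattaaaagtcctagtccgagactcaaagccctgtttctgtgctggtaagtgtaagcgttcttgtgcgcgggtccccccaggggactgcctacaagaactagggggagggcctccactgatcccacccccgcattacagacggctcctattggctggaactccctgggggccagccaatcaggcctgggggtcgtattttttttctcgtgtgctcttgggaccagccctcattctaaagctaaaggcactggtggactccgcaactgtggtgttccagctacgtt

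Genes around the respiratory chain were counted from lists of their pathways, to be read against 11.8% of all genes called lower and 13.0% higher, and against 21.2% and 19.2% of the brightest 25%. The TCA cycle, which feeds NADH and succinate to the chain, had 5 of 15 measured genes called lower and 2 higher, with a median of -0.17. Pdhb, of the pyruvate dehydrogenase complex, was at -0.57 ± 0.08 and Idh3b and Idh3a, of the NAD-dependent isocitrate dehydrogenase, were at -0.53 ± 0.09 and -0.40 ± 0.09. Idh2, the NADP-dependent enzyme, was called higher at 0.27 ± 0.06 and Suclg2, of succinyl-CoA ligase, at 0.24 ± 0.07. Glycolysis and lactate genes had 5 of 19 called lower, or 26.3%, and 4 higher, shares near those of bright genes, with a median of -0.06. Pfkm, the muscle-type phosphofructokinase, was at -0.66 ± 0.06, Aldoc, an aldolase found in neural tissue, at -0.47 ± 0.08 and the glucose transporter Slc2a1 at 0.49 ± 0.07.

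Assembly factors outside the Ndufaf family had 6 of 29 called lower and 0 higher, with a median of -0.24. The lowest p was that of Uqcc1, needed to assemble complex III, at -0.69 ± 0.08, next to the complex II factor Sdhaf3 at -0.35 ± 0.07 and the complex IV factor Cox14 at -0.35 ± 0.08. Of 11 regulators of mitochondrial gene expression, 2 were called lower, namely Lrpprc at -0.47 ± 0.08 and Slirp at -0.39 ± 0.10, partners that stabilise mitochondrial messenger RNA. Mitochondrial ribosomal proteins had 9 of 71 called lower, or 12.7%, near the 11.8% of all genes, and 0 higher, with a median of -0.13, among them Mrps34 at -0.62 ± 0.13, Mrps30 at -0.32 ± 0.07 and Mrps31 at -1.64 ± 0.40.

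Other routes of electrons and carriers had 5 of 21 called lower and 2 higher, with a median of -0.07. Coq3, an enzyme of ubiquinone synthesis, was at -0.88 ± 0.07, Etfa, of the flavoprotein that takes electrons from fatty acid oxidation, at -0.78 ± 0.08 and the mitochondrial creatine kinase Ckmt1 at -0.75 ± 0.12. For Coq3, Etfa, Ckmt1, Pfkm and Uqcc1 all 6 SNL arrays were below all 6 sham arrays, and each fell by more than any member other than Ndufs1.

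**Figure D5:**
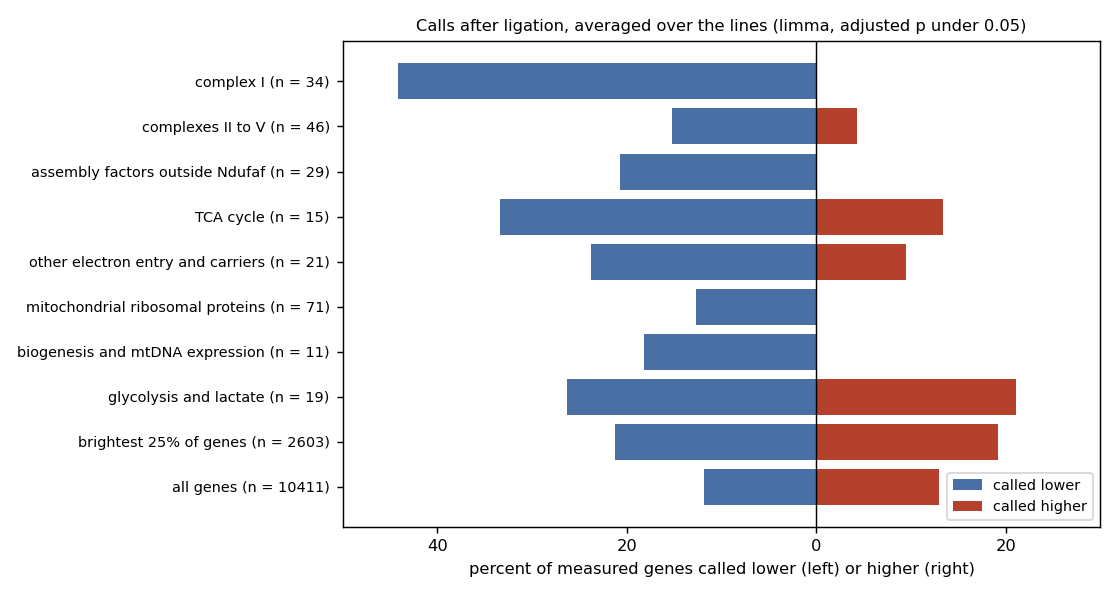
Percent of measured genes called lower (bars to the left) or higher (bars to the right) after SNL averaged over the lines, for complex I, complexes II to V, the related lists, the brightest 25% of genes and all genes (vertical axis). Complex I reaches 44.1% lower with none higher. The share lower is 15.2% for complexes II to V, 21.2% for the brightest 25% of genes and 11.8% for all genes.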

How the data were processed

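The authors deposited a table of linear intensity values for each probe set, used here unchanged. Per the submitters' processing notes the tool named is RMA. Every array nevertheless has a trimmed mean of 500.1, which is the pattern of global scaling, so the steps behind the values are not settled here. Of 191076 values 109 were below 1, and log2(signal + 1) was tested, as the design foresaw for linear values.

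Symbols came from the platform annotation, updated through a RefSeq gene table of GRCr8. Of 15923 probe sets 57 were controls, 12783 had 1 symbol (12748 matched by gene identifier, 2 by accession, 33 kept as given) and 312 had several and were not used for genes. For each gene the probe set of highest mean was used, and 4 members had several probe sets.

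A single limma model (3.58.1, with statmod 1.5.0 in R 4.3.3) of the 4 group means was fitted to all 12 arrays, with moderated variances on 8 residual degrees of freedom. Two-sided contrasts compared SNL with sham within each line and averaged over both, LP with HP within each surgery, and the ligation response between the lines, each with p-values adjusted by Benjamini-Hochberg over 10411 genes. The scripts were tested on simulated data.

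Members, lists and markers were chosen with earlier results of these data known. Signals on every array are given for up to 4 members of each complex with the smallest averaged p, the 3 with the smallest p in each line contrast and the interaction, the tissue isoforms with their partners, and Atp5if1 and Cyc1. The core subunit Ndufs8, the beta subunit Atp5f1b and the factors Ndufaf5 and Ndufaf7 were added after their values were seen. From each list up to 3 called genes with the smallest p are named, plus the higher calls of the TCA cycle. The Ndufs1, Ndufaf5 and Cox6b2 promoters were chosen for their values. Of 2 forms of the NRF1 motif searched, the shorter was taken up after the counts of the longer were seen, and both are given. Alternatives covered the replicate number as a block, filters, normalizations, variance models, pseudocounts, probe set rules, an RNA quality covariate and arrays left out.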

Additional observations from a re-analysis of the deposited data

How the results depend on the processing

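No called difference reversed under any alternative. Averaged over the lines, the count of members called lower stayed between 17 and 34 (24 as reported), and the medians of all 85 members and of complexes I to V stayed below 0 throughout, complex IV from -0.14 to -0.05. The count called higher, 2 as reported, was 0 without the dimmest 25% of genes, which removes Cox6b2 and Cox7a1, and 1 with the actin ratio as a covariate or without HP sham replicates 1 and 3 together. Counts in a single line moved more. In HP, the lower calls (7 as reported) were 2 with the replicate block, 12 without the dimmest 25% of genes, 13 with trended and robust variance, 1 in a fit of only the arrays compared, 4 after adding the actin ratio and 1 after leaving out both of those HP sham arrays. Higher calls in HP (1 as reported) were 0 without the dimmest genes, in the fit of only the arrays compared, with a pseudocount of 32, with the actin ratio and without both HP sham replicates. In LP, the lower calls (11 as reported) were 7 with the replicate block, 17 with trended and robust variance and 2 in the fit of only the arrays compared. Higher calls in LP (2 as reported) were 1 with the replicate block, quantile normalization, the actin ratio, a separate test of every probe set or both HP sham arrays left out, and 0 without the dimmest genes. Leaving out 1 array at a time gave 2 to 8 lower and 0 to 1 higher calls in HP, 4 to 11 and 1 to 2 in LP, and 19 to 25 and always 2 on average. Calls between the lines and in the interaction were 0 in every analysis. Apart from the smaller gene set and the fewer arrays, the cause was not tested.

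No pairing by replicate number was visible. Same-numbered arrays had correlations of their deviations from -0.158 to 0.098, and 0 of 18 pairs exceeded 0.1. Among differently numbered arrays 4 of 36 pairs did, with a highest value of 0.213. Deviations from means of 3 arrays cannot exclude a shared batch. With the replicate block, 22 members were called lower and 2 higher on average, and the calls of Ndufa2 (adjusted p 0.0718) and Atp5po (0.0639) were lost.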

Other observations

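The 9 probe sets annotated to a respiratory chain gene together with a pseudogene or a near-identical copy were kept out of the counts above. In a limma fit of 15866 probe sets, 4 of them were called lower (Benjamini-Hochberg adjusted p under 0.05) and 0 higher after SNL averaged over the lines. Their differences ran from -0.34 to 0.19 with a median of -0.16, and 7 lay below 0.

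Of the other probe sets of members with several, 1 of Atp5me stood at -0.64 (adjusted p 0.196) where the brighter one stood at -0.15, and 2 of Atp5if1 stood at 0.06 and 0.33 where the brightest stood at -0.01. These dimmer probe sets were not called.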
